A study of Rattus norvegicus with 6 samples.

Results

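CpG dinucleotides whose cytosines were measured on both DNA strands were taken from the reduced representation bisulfite sequencing (RRBS) tables of rat hippocampus. RRBS sequences restriction fragments rich in CpGs after bisulfite has turned unmethylated cytosines into uracil. A pair was formed by the adjacent positions p and p+1 of 1 chromosome when both carried a CpG status and both had 20 reads or more in both libraries. Position p is then the cytosine of the forward strand and p+1 the cytosine of the reverse strand. Runs of more than 2 adjacent positions, in which the partners cannot be told from the tables, were dropped. The rule gave 218991 pairs, which hold 437982 (36.0%) of the 1215420 CpG positions present in both libraries.

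The libraries came from Sprague-Dawley rats labelled with an age of 7 weeks. The treated library is from hippocampus after daily oral gavage of benzo[a]pyrene, written B[a]P, at 2.0 mg/kg in corn oil. B[a]P is a combustion product of the polycyclic aromatic kind. The control library is from hippocampus after gavage of the corn oil alone. There was 1 RRBS library per group, and the labels do not say whether a library holds 1 animal or several, so tests below compare the reads of 2 libraries, not the conditions. No gene expression is in these tables and no annotation of their genome build was used, so the tissue was not checked against markers and pairs are named by position in rn5.

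A CpG reads the same on both strands, so each dinucleotide offers a cytosine on either strand. DNMT1, guided to hemimethylated DNA by UHRF1, copies methylation from the old strand to the new one after replication, which keeps most CpGs alike on both strands. DNMT3A and DNMT3B add methyl groups to unmethylated CpGs, and TET enzymes oxidise 5-methylcytosine. Bisulfite reads 5-methylcytosine and 5-hydroxymethylcytosine alike, and 5-hydroxymethylcytosine is abundant in brain. Each read covers 1 strand, so a pair compares separate reads and does not show the state of both strands of 1 molecule.

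The CpG positions of the full tables had a median of 47 reads in the B[a]P library and 72 in the control library. Within the pairs the median was 66 reads in the B[a]P library and 100 in the control library. The strands were often unequally deep. Their depths were over 2-fold apart at 28.3% of pairs in the B[a]P library and at 44.4% in the control library. Pooled methylation at CHG and CHH cytosines, which bounds failed conversion and real non-CpG methylation together, was 0.633% and 0.706% in the B[a]P library and 0.645% and 0.685% in the control library. All intervals below are 95% intervals (Wilson for a level, Newcombe for a difference) and cover counting error only. The tables do not tell PCR copies from separate molecules. They hold no base calls either, so it is not known whether the animals' own sequence at a position is the CpG of the reference genome, and this bears on the asymmetric pairs and on those at opposite levels in the libraries.

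The strands of a pair had nearly the same methylation level in both libraries. Pearson's r between the forward and the reverse level over all pairs was 0.987 in the B[a]P library and 0.988 in the control library. The median absolute strand difference was 0.704 percentage points in the B[a]P library and 0.794 points in the control library. Pairs under 10 points made up 94.6% in the B[a]P library and 95.2% in the control library. Neither strand was higher as a rule, since the mean of forward minus reverse was -0.0017 points in the B[a]P library and 0.0049 points in the control library. These correlations are over pairs that share a library and span unmethylated and methylated DNA, and they are given as descriptions.

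Most of this agreement came from DNA with little methylation. Levels under 20% are called low here, levels of 80% or more high, and those between them intermediate. Pairs low on both strands were 80.3% of all in the B[a]P library and 80.7% in the control library. In 82765 pairs of the B[a]P library (37.8%) and 60335 pairs of the deeper control library (27.6%) neither strand had a methylated read. Pairs high on both strands were 10.4% in the B[a]P library and 10.3% in the control library, with a median strand difference of 3.14 points in the B[a]P library and 3.09 points in the control library.

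Intermediate methylation was shared by the strands too. Pairs intermediate on both strands made up 6.25% in the B[a]P library and 6.12% in the control library. Their forward and reverse levels had an r of 0.803 in the B[a]P library and 0.797 in the control library, with a median strand difference of 6.58 points in either. On both strands and in both libraries, 11234 pairs at 5580 loci were intermediate, where a locus joins pairs no more than 1000 bases apart. Of those pairs, 5125 had strands within 10 points in both libraries. This selection by itself leaves out pairs with a methylated strand facing an unmethylated one. Over all pairs, a high reverse strand faced a low forward strand at 18 pairs in the B[a]P library and 22 in the control library. A high forward strand faced a low reverse strand at 27 pairs in the B[a]P library and 23 in the control library.

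**Figure D1:**
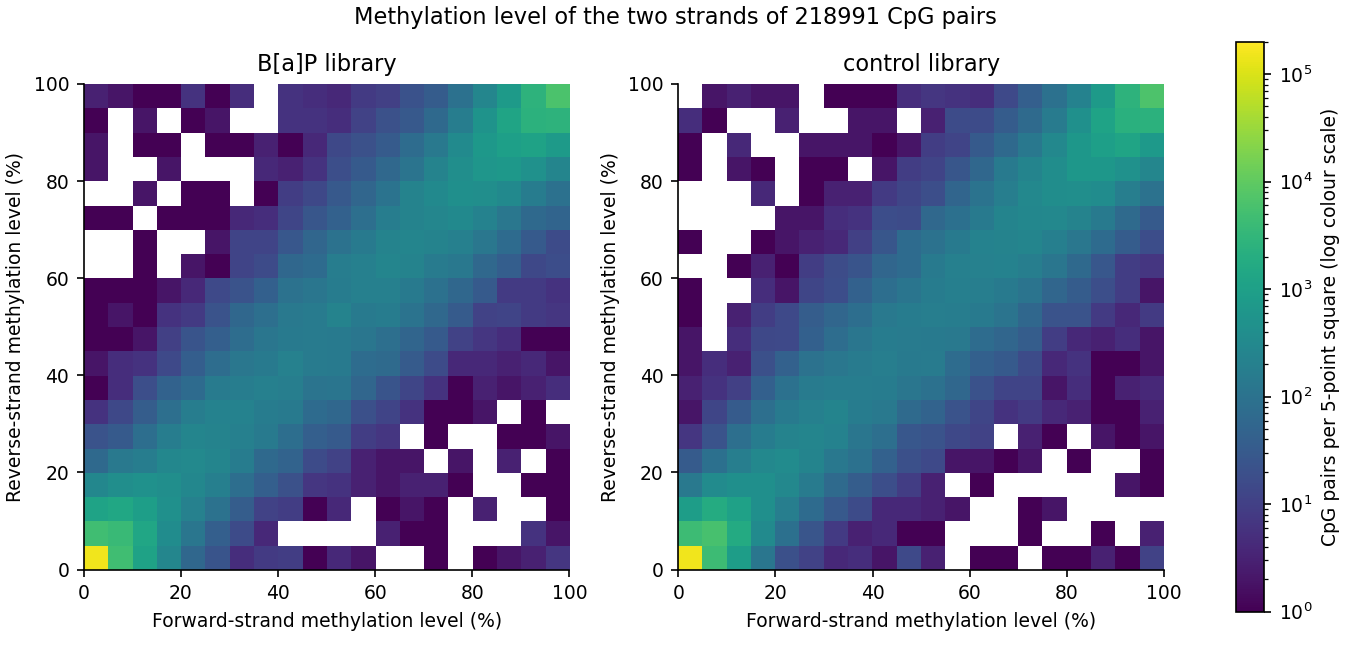
Methylation level on the forward strand (x axis, percent) against the reverse strand (y axis, percent) for the 218991 pairs, with the B[a]P library left and the control library right. Colour gives the number of pairs per cell on a log scale. Most pairs lie in the lowest corner, with a second group in the highest corner and a band along the diagonal between them.

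The scatter between the strands was larger than read counting gives. Where at least 5 methylated and 5 unmethylated reads were expected on each strand, the squared strand difference averaged 2.05 times its binomial variance over 28962 pairs of the B[a]P library and 2.37 times over 35325 pairs of the control library. The median ratio was 0.737 for the B[a]P library and 0.812 for the control library. Without the pairs called asymmetric below, the averages were 1.63 in the B[a]P library and 1.82 in the control library. The excess was largest at the deepest pairs. Where the shallower strand had 20 to under 50 reads it was 1.93 in the B[a]P library and 2.12 in the control library, and from 50 to under 100 reads 1.90 in the B[a]P library and 2.03 in the control library. From 100 to under 200 reads it was 2.47 in the B[a]P library and 2.49 in the control library. At pairs whose shallower strand had 200 reads or more it was 5.33 in the B[a]P library and 8.33 in the control library. These averages by depth include the pairs called asymmetric. Fisher's exact test treats reads as independent, so its p-values are too small wherever reads are not. Whether the excess came from such reads or from strands that truly differ was not tested.

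Pairs with different levels on their strands were rare. A pair was called asymmetric in a library when Fisher's exact test of its strands' reads (2-sided, Benjamini-Hochberg over all pairs) gave an adjusted p under 0.05 and the strands were 25 points or more apart. The B[a]P library had 288 such pairs (0.132% of all pairs) and the control library 377 (0.172%). The forward strand was higher in 161 and the reverse strand in 127 of those in the B[a]P library, against 192 and 185 in the control library. Neighbouring pairs lie on the same reads, and the calls fall into 182 loci in the B[a]P library and 237 in the control library.

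Of the asymmetric pairs, 183 were called in both libraries. They are 63.5% of the calls in the B[a]P library, where 0.132% of all pairs were called, and 48.5% of those in the control library, where 0.172% were. The same strand was the more methylated one in both libraries at each of these 183 pairs, with 102 higher on the forward strand and 81 on the reverse strand. No pair was called in opposite directions. The recurring pairs lie in 120 loci, of which 89 hold 1 pair, and in 22 of the 31 loci with more than 1 pair all pairs had the same strand higher.

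At the recurring pairs the size of the strand difference was similar in both libraries. These pairs were selected by a call in both libraries, which by itself leaves out pairs with a small difference in either. How much of the similarity this selection gives was not tested. Pairs called only in the B[a]P library or only in the control library, described below, had a smaller median difference in the other library. The median absolute difference over the recurring pairs was 53.6 points in the B[a]P library and 50.5 points in the control library. Between the libraries it moved by a median of 6.97 points, and 123 of the 183 pairs were within 10 points. Over all 218991 pairs, most of which have no difference to recur, the r of the strand difference between libraries was 0.382. The difference of the asymmetry between the libraries was called at 2 of the recurring pairs.

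**Figure D2:**
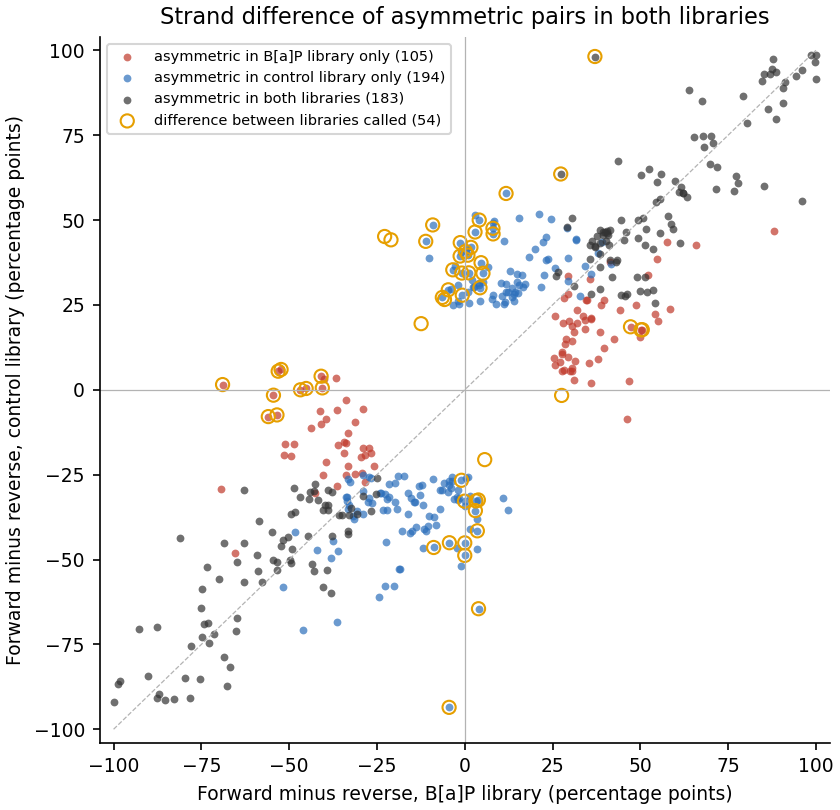
Forward minus reverse methylation in the B[a]P library (x axis, percentage points) against the same in the control library (y axis, percentage points). Recurring pairs lie along the diagonal in the 2 corners where both libraries have the same strand higher, while pairs called in 1 library mostly lie nearer to the axis of the other.

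At the most asymmetric recurring pairs one strand was methylated in nearly every read and the other in almost none. The pair at chr1:271648552-271648553 had 77 of 77 forward reads methylated in the B[a]P library (100%, 95.2 to 100) and 78 of 79 in the control library (98.7%, 93.2 to 99.8). Its reverse strand had 0 of 21 in the B[a]P library (upper bound 15.5%) and 0 of 32 in the control library (upper bound 10.7%). The strands thus differed by 100 points (83.8 to 100) in the B[a]P library and by 98.7 points (86.7 to 99.8) in the control library, with Fisher's adjusted p of 4.66e-18 in the B[a]P library and 1.89e-23 in the control library.

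A second pair of this kind lies at chr14:10434323-10434324. Its forward strand had 69 of 70 reads methylated in the B[a]P library (98.6%, 92.3 to 99.7) and 152 of 154 in the control library (98.7%, 95.4 to 99.6). Its reverse strand had 0 of 43 in the B[a]P library and 0 of 46 in the control library. Non-CpG methylation within 25 bases of this pair was 3.24% in the B[a]P library and 4.93% in the control library. Over all pairs the 90th percentile was 0.764% in the B[a]P library and 0.801% in the control library. At chr1:28050646-28050647 the forward strand had 30 of 30 reads methylated in the B[a]P library and 22 of 24 in the control library, and the reverse strand was unmethylated in all 142 reads of the B[a]P library and all 173 of the control library.

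A deeply read strand was nearly free of methylation at another recurring pair. At chr4:244312484-244312485 the reverse strand had 3 methylated of 1957 reads in the B[a]P library (0.153%, 0.0521 to 0.45) and 34 of 4605 in the control library (0.738%, 0.529 to 1.03). The forward strand of the same pair had 29 of 29 in the B[a]P library and 35 of 36 in the control library, at a far lower depth.

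The opposite direction was as marked, with a methylated reverse strand. At chr2:7573579-7573580 the forward strand had 0 of 40 reads methylated in the B[a]P library and 5 of 81 in the control library (6.17%, 2.67 to 13.65). The reverse strand had 31 of 31 in the B[a]P library and 54 of 55 in the control library. Forward minus reverse was -100 points (-100 to -85.9) in the B[a]P library and -92.0 points (-95.8 to -81.2) in the control library, with Fisher's adjusted p of 3.93e-17 in the B[a]P library and 4.15e-27 in the control library.

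The pair at chr4:10545172-10545173 had no methylated forward read in either library, out of 30 in the B[a]P library and 41 in the control library. Its reverse strand had 28 of 32 in the B[a]P library (87.5%, 71.9 to 95) and 30 of 33 in the control library (90.9%, 76.4 to 96.9). A pair at chr9:43402213-43402214 had the same form, with 0 of 41 and 0 of 48 forward reads and with 29 of 34 (85.3%) and 21 of 23 (91.3%) reverse reads methylated in the B[a]P and the control library. The other 5 pairs named by the same rule were as far apart in both libraries, by 85.7 points or more.

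Complete opposition was 1 of several forms. At 34 recurring pairs in 29 loci one strand was high and the other low in both libraries, and the low strand had a median level of 4.38% in the B[a]P library and 3.62% in the control library. At 38 pairs in 31 loci a high strand faced a strand between 35% and 65% in both libraries. Another 46 pairs joined a high strand to another level. At 50 pairs in 27 loci an intermediate strand faced a low one, with a median of 51.5% in the B[a]P library and 47.6% in the control library on the more methylated strand. The other 15 pairs had no such form in both libraries, and these limits were chosen after the values were seen.

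**Figure D3:**
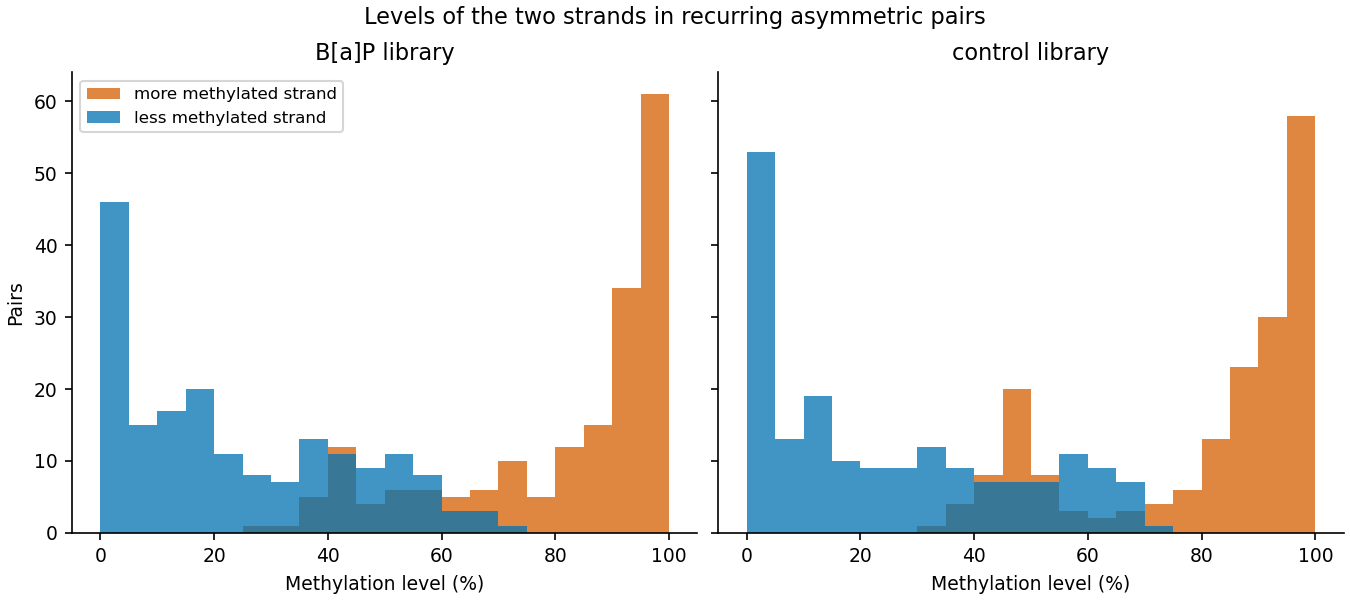
Level of the more methylated strand (percent) and of the less methylated strand (percent) at each of the 183 recurring pairs, with the B[a]P library left and the control library right. The more methylated strand was at 80% or more in 122 pairs of the B[a]P library and 124 of the control library, and the less methylated one was under 20% in 98 pairs of the B[a]P library and 95 of the control library.

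The locus with the most recurring pairs has 9 of them, with first cytosines from chr13:93162497 to 93162572, all with the forward strand higher. It was singled out after its values were seen. Forward levels ran from 28.2% to 63.7% in the B[a]P library and from 37.5% to 58.1% in the control library. Reverse levels ran from 1.74% to 8.19% in the B[a]P library and from 3.70% to 11.98% in the control library. The forward strand had 102 to 287 reads in the B[a]P library and 258 to 555 in the control library. The reverse strand had 171 or 172 reads in the B[a]P library and 242 to 244 in the control library. The pairs lie close enough to be covered by the same reads, so the 9 are not separate observations.

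Many recurring pairs had neighbours that were not recurring. Within 50 bases, 169 of the 183 recurring pairs had another pair, and at 93 of them none of those was a recurring one, while 76 had a recurring neighbour. The 365 neighbours that were not recurring had a median absolute strand difference of 4.96 points in the B[a]P library and 4.28 points in the control library. Of these neighbours, 273 (74.8%) in the B[a]P library and 277 (75.9%) in the control library were under 10 points. Over all pairs these shares were 94.6% in the B[a]P library and 95.2% in the control library. At 25 points or more were 30 neighbours in the B[a]P library and 29 in the control library, while 99.5% of all pairs were under 25 points in either library. The neighbours were mostly methylated, with a median level of 83.3% in the B[a]P library and 83.6% in the control library. Most of all pairs were low on both strands.

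The pair at chr1:271648552 shows this. The pairs 12, 31 and 44 bases further had reverse levels of 89.1% to 95.5% in the B[a]P library and of 89.1% to 96.2% in the control library, beside the 0% of its own reverse strand. Their reverse strands had 110 reads each in the B[a]P library and 156 or 157 in the control library, against 21 reads in the B[a]P library and 32 in the control library at the asymmetric pair. The reverse strand of the asymmetric pair thus had far fewer counted reads than that of its neighbours.

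Lower counts at the less methylated strand were frequent beside recurring pairs. For 150 of them a pair within 50 bases that is not recurring gave a depth to compare with. The less methylated strand had under 75% of that neighbour's reads at 57 pairs (38.0%) in the B[a]P library and at 59 (39.3%) in the control library. The more methylated strand did so at 26 pairs (17.3%) in the B[a]P library and 18 (12%) in the control library. Among all next pairs that close, 3.47% of strands in the B[a]P library and 3.45% in the control library fell under that limit. The part of these lower counts in the asymmetry was not tested.

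Other measures moved with the recurring pairs too. A CHG cytosine was listed directly beside 86.9% of them, against 74.5% of all pairs. Without pairs beside a CHG cytosine, 23 pairs recurred of 55754, which are 44.2% of the calls in the B[a]P library and 27.7% of those in the control library. Non-CpG methylation within 25 bases had a median of 0.656% in the B[a]P library and 0.734% in the control library at recurring pairs, against 0.329% in the B[a]P library and 0.383% in the control library over all pairs. Strand depths were over 2-fold apart at 40.98% of recurring pairs in the B[a]P library and 53.0% in the control library. The part of these measures in the result was not tested.

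Asymmetry called in 1 library was mostly weaker than recurring asymmetry. In the B[a]P library alone, there were 105 called pairs, with a median absolute difference of 36.0 points there and 17.0 points in the control library. At 95 of them the control library had the same sign. In the control library alone, 194 pairs were called, with a median of 11.9 points in the B[a]P library and 34.0 points in the control library, and 161 had the same sign in the B[a]P library. A call in 1 library does not show that the libraries differ, so the difference itself was tested.

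The difference of the asymmetry, (forward minus reverse in B[a]P) minus (forward minus reverse in control), passed an adjusted p under 0.05 and 25 points at 54 pairs (0.0247% of all pairs) in 31 loci. The test was a normal one on levels after adding 1 methylated and 1 unmethylated read to each count, adjusted by Benjamini-Hochberg over all pairs. Of the 54, 13 pairs in 9 loci were asymmetric in the B[a]P library alone and 33 in 16 loci in the control library alone. A likelihood ratio test of the same difference on the log-odds scale called 14 pairs, all among the 54. Of these 14 pairs, 10 lie in or around the stretch of chromosome 1 described below. The likelihood ratio test adds no reads and also differs in its form, so what ended the other calls was not tested.

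In 41 of the 54 pairs, 3 of the 4 levels were within 15 points of each other and a single strand of a single library stood apart. That strand was the forward one of the B[a]P library at 10 pairs, the reverse one of the B[a]P library at 1, the forward one of the control library at 19 and the reverse one of the control library at 11. One stretch held many of them. In it, 16 of the 49 pairs between chr1:13503709 and 13505367 were called, all asymmetric in the control library alone, with median levels of 34.1% forward and 32.8% reverse in the B[a]P library and 66.7% forward and 35.6% reverse in the control library. The stretch also holds the 3 named pairs with the most reads, given below, and the part of depth in its calls was not tested. Outside it, 38 pairs in 30 loci were called by the normal test.

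The 3 named pairs asymmetric in the B[a]P library alone had a partly methylated forward strand beside 3 highly methylated strands. Of the 41 pairs above, 18 had such a form, with the strand that stood apart at 30% to 70% and the others at 80% or more, and the strand that stood apart was the lower one in 22. At chr9:32180700-32180701 the forward strand had 37 of 86 reads methylated in the B[a]P library (43.0%, 33.1 to 53.6) and 62 of 63 in the control library (98.4%, 91.5 to 99.7). The reverse strand had 39 of 40 in the B[a]P library and 36 of 36 in the control library. The pairs 14 and 10 bases before and 21 bases after it had levels from 90.5% to 98.9% on both strands in both libraries.

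At chr4:18040651-18040652 the forward strand had 66 of 124 reads methylated in the B[a]P library (53.2%, 44.5 to 61.8) and 84 of 84 in the control library. The reverse strand was methylated in all reads of both libraries, 37 in the B[a]P library and 35 in the control library. The third pair, at chr20:23993563-23993564, had a forward strand with 9 of 29 in the B[a]P library (31.03%, 17.3 to 49.2) and 87 of 87 in the control library.

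The named pairs asymmetric in the control library alone had an unmethylated or a partly methylated forward strand there. At chr2:157803847-157803848 the forward strand had 45 of 55 reads methylated in the B[a]P library (81.8%, 69.7 to 89.8) and 0 of 29 in the control library (upper bound 11.7%). Its reverse strand had 44 of 51 in the B[a]P library (86.3%) and 29 of 31 in the control library (93.5%). Non-CpG methylation within 25 bases of this pair was 0.469% in the B[a]P library and 6.69% in the control library. Over all pairs, 0.203% reached 5% in the B[a]P library and 0.232% in the control library. The part of this in the asymmetry was not tested. At chr2:155489611-155489612 the forward strand had 82 of 82 in the B[a]P library and 76 of 154 in the control library (49.4%, 41.6 to 57.2), beside a reverse strand at 100% in the B[a]P library and 98.1% in the control library.

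**Figure D4:**
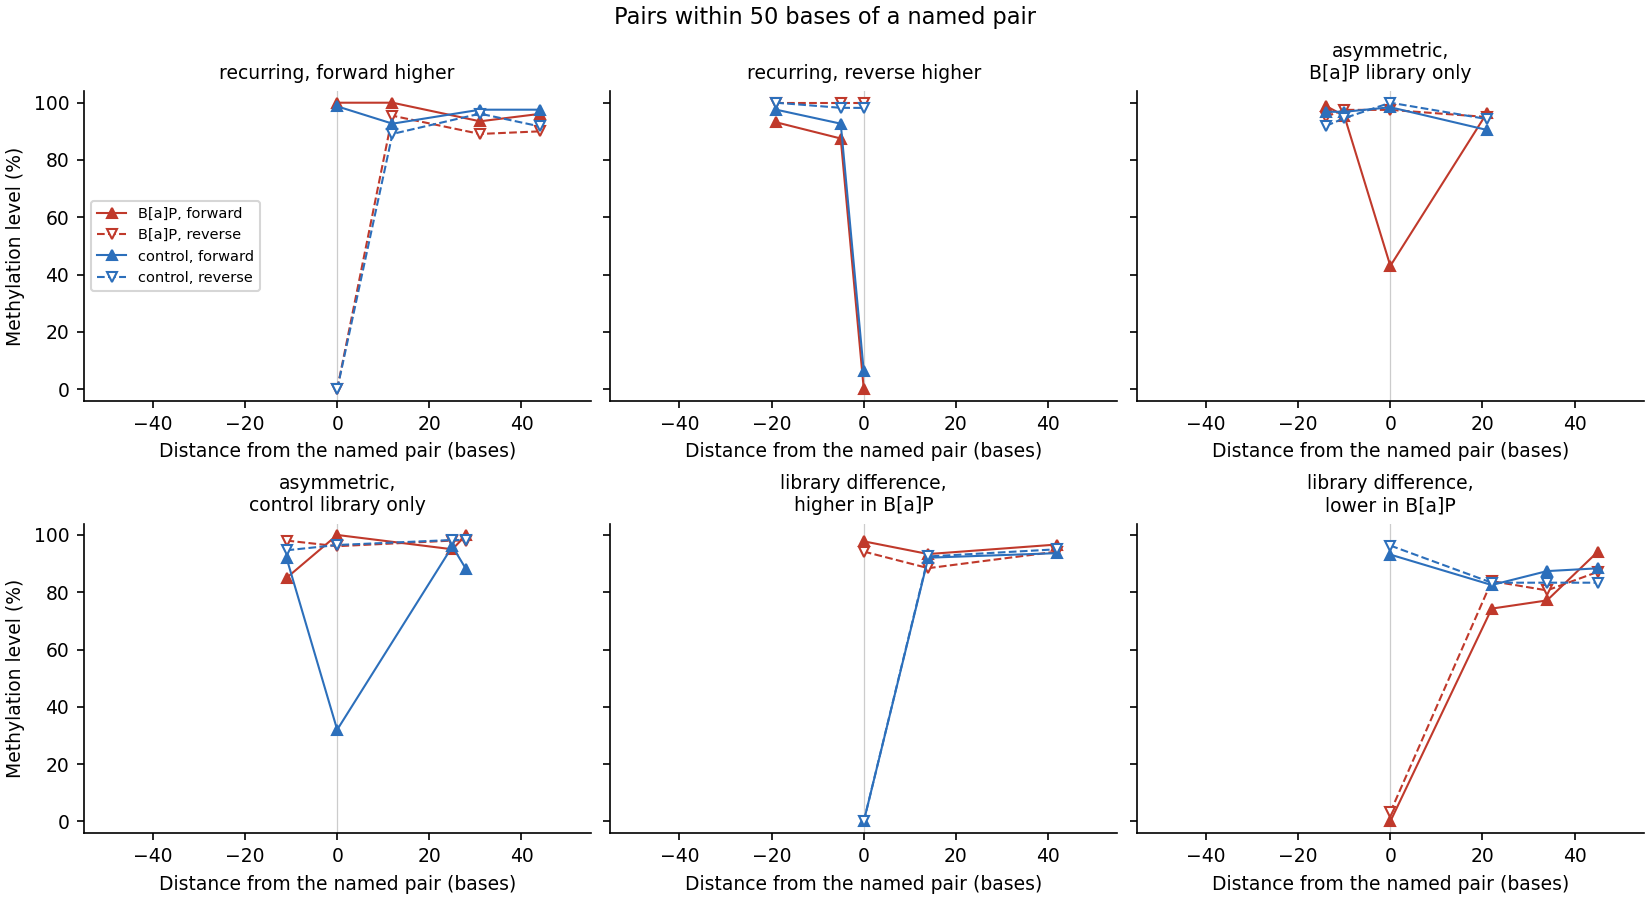
Methylation level (percent) on the forward and the reverse strand of named pairs and of the other pairs around them, by distance from the named pair (bases). Each panel shows a named pair, with the library given by colour and the strand by solid (forward) or dashed (reverse) lines. The named pair at distance 0 departs from its neighbours on 1 strand or in 1 library.

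Pairs also give each difference between the libraries on either strand. At single CpG positions, Fisher's exact test of the B[a]P reads against the control reads (Benjamini-Hochberg over all 1215420 positions, 25 points or more) called 1793 positions (0.148%), 840 higher in B[a]P (0.0691%) and 953 lower (0.0784%). Among the members 530 of 437982 positions were called (0.121%), a share near that of the whole table. On the forward strand 133 positions were higher and 151 lower in the B[a]P library, against 106 and 140 on the reverse strand.

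Both strands were called at 148 pairs in 109 loci, and at none of them in opposite directions. The B[a]P library was higher at 72 pairs and lower at 76, and by loci at 56 and 55. Of the lower pairs 22 lie in 1 cluster of chromosome 1, which holds the stretch described above, and without it 72 pairs were higher and 54 lower. Over these pairs the median absolute difference was 45.8 points on the forward and 47.2 points on the reverse strand. Their strands were alike within each library, with a median strand difference of 4.37 points in the B[a]P library and 4.19 points in the control library. A single strand was called at 136 pairs (forward) and 98 pairs (reverse), where the other strand had the same sign at 110 and 81 and a median difference of 16.1 and 17.5 points. Over all pairs, the r of the library difference between the strands was 0.221.

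**Figure D5:**
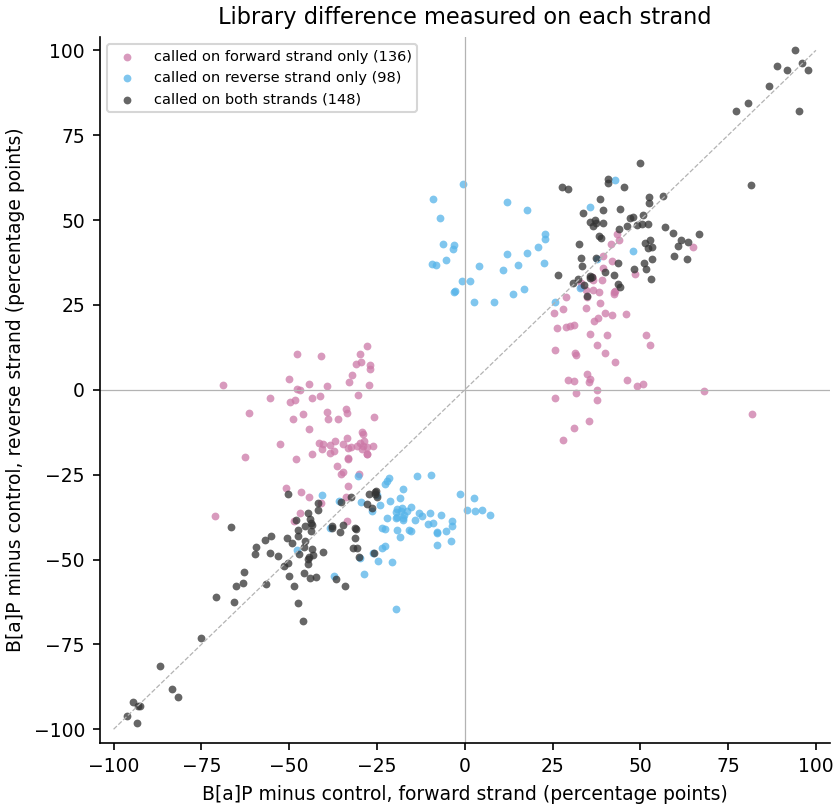
B[a]P minus control methylation on the forward strand (x axis, percentage points) against the same on the reverse strand (y axis, percentage points). The 148 pairs called on both strands lie in the 2 corners where the strands have the same sign, while those called on 1 strand spread toward the axes.

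The named pairs higher in the B[a]P library had methylation in nearly all of its reads on both strands. At chr9:109907120-109907121 the forward strand had 88 of 90 reads methylated in the B[a]P library and 0 of 63 in the control library, a difference of 97.8 points (89.8 to 99.4, Fisher's adjusted p = 2.36e-37). The reverse strand had 65 of 69 in the B[a]P library and 0 of 40 in the control library, a difference of 94.2 points (82.2 to 97.7, Fisher's adjusted p = 6e-22). The pairs 14 and 42 bases further had levels of 88.4% to 96.7% in the B[a]P library and 92.1% to 95% in the control library, so the difference did not extend to them.

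A pair at chr19:51930811-51930812 had 24 of 25 forward and 25 of 26 reverse reads methylated in the B[a]P library, and 0 of 24 and 0 of 25 in the control library. At chr3:46671566-46671567 the counts were 48 of 51 and 77 of 77 in the B[a]P library and 0 of 28 and 0 of 48 in the control library. The pair at chr10:14048415-14048416 had 33 of 36 and 48 of 50 in the B[a]P library and 0 of 100 and 1 of 53 in the control library. At each of these pairs both strands were methylated in nearly all reads of the B[a]P library and in at most 1 read of the control library. Whether the animals of both libraries carry a CpG at these positions is not known from the tables.

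The opposite difference was as complete. At chr1:216232867-216232868 the forward strand had 0 of 58 reads methylated in the B[a]P library and 158 of 171 in the control library, a difference of -92.4 points (-95.5 to -84.4, Fisher's adjusted p = 3.97e-38). The reverse strand had 0 of 43 in the B[a]P library and 41 of 44 in the control library, a difference of -93.2 points (-97.6 to -79.1, Fisher's adjusted p = 4.37e-18). At chr17:9496144-9496145 the B[a]P library had 0 of 34 forward and 1 of 31 reverse reads methylated, and the control library 95 of 102 and 52 of 54. The pairs 22, 34 and 45 bases beside it had 74.3% to 94.1% in the B[a]P library and 82.5% to 88.3% in the control library.

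At chr19:58071312-58071313 the B[a]P library had 0 of 27 forward and 0 of 40 reverse reads methylated, and the control library 55 of 59 and 106 of 108. The pair at chr7:24038997-24038998 had 0 of 35 and 0 of 24 in the B[a]P library and 26 of 27 and 25 of 26 in the control library. Few of the 148 pairs called on both strands were at such opposite levels. On both strands, 8 were low in the B[a]P library and high in the control library, and 8 were high in the B[a]P library and low in the control library. Of the 148 pairs, 127 had another pair within 50 bases, and at 81 of them none of those was called on both strands. Of the 251 neighbouring pairs not called on both strands, 176 differed between the libraries by under 10 points on both strands. With 1 library per group, a difference between the groups and one between the animals cannot be told apart.

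The pairs with the most reads did not enter these lists. They lie close together in the stretch of chromosome 1 described above, at chr1:13504949, 13504958 and 13504961. They had 10355 to 15925 reads per strand in the B[a]P library and 14675 to 30102 in the control library. At chr1:13504961 the forward and reverse levels were 19.4% and 17.2% in the B[a]P library and 23.3% and 19.7% in the control library. The strand difference was 2.23 points (1.28 to 3.18, Fisher's adjusted p = 0.00455) in the B[a]P library and 3.63 points (2.83 to 4.43, Fisher's adjusted p = 4.54e-15) in the control library, far under 25 points.

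Positions in pairs had lower levels than single positions, those with 20 reads or more in both libraries and no adjacent position that reached this minimum. At 31.8% of the 430632 single positions an adjacent CpG position was listed at a lower coverage or in 1 table. Single positions had a mean level of 36.7% in the B[a]P library and 36.2% in the control library. Positions in pairs had a mean of 15.7% in the B[a]P library and 15.5% in the control library. Those in the longer runs, which are the densest CpG stretches, had 3.99% in the B[a]P library and 3.96% in the control library. The share called between the libraries was 0.240% at single positions, 0.121% in pairs and 0.0538% in longer runs. Depth and level differ between these classes, and no test of their difference was made because positions share reads.

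Pairs on either side of the 20-read limit had similar scatter between their strands. Pairs whose lowest count was 20 or 21 reads had a median strand difference of 1.30 points in the B[a]P library and 1.38 points in the control library (12769 pairs). Pairs just outside, with a lowest count of 18 or 19 reads, had 1.43 points in the B[a]P library and 1.49 points in the control library (12374 pairs).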

How the data were processed

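RRBS was done on 2 libraries, 1 per group. The RNA-seq and miRNA-seq libraries of the series were not used here. Per the file headers, the tables the authors deposited give for each cytosine the counts of methylated and unmethylated reads, the methylation level in percent, and a status letter for context. No column gives the strand. The submitters' processing notes name bcl2fastq, rn5 and rn6 with no role. For the aligner, the methylation caller and duplicate removal, nothing is given in the sources used here. The lowest deposited coverage was 10 reads. Positions reach chr1:290084085, which rn6's chromosome 1 does not reach, so they are given as rn5, as the start column prints them; whether it counts from 0 or 1 is not known.

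Levels were computed from the counts with Python 3.11.15, numpy 2.4.6, pandas 2.3.3, scipy 1.17.1 and statsmodels 0.14.6. Fisher's exact test of the strands and the normal test of the difference were checked on counts simulated with independent reads, with changes put at intermediate pairs. That check does not cover the excess scatter of these data, levels near the ends of the scale or the likelihood ratio test. In 27 of the pairs a further CpG position at lower coverage is adjacent, so their phase is uncertain. The pairs, limits and lists were chosen with earlier results of these data known. Pairs were named by rule, 1 per 1000 bases: the 6 recurring pairs per direction with the largest strand difference in the weaker library; the 3 per library called in that library and in the test of the difference, and under 5 points in the other library; the 4 per direction with the largest library difference on the weaker strand; and the 3 with the most reads. Alternatives changed the read minimum, coverage, strand depth, neighbouring CHG cytosines, the size limit and the test.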

Additional observations from a re-analysis of the deposited data

Results flagged for a closer look

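The asymmetry of 6 pairs differed between the libraries by the normal test of the difference itself, at an adjusted p under the threshold, among pairs under 5 points apart in the other library. The difference is B[a]P minus control of forward minus reverse, in percentage points. It was -70.5 at chr20:23993563, -52.9 at chr9:32180700 and -46.8 at chr4:18040651, where the B[a]P library was the asymmetric one. Fisher's exact test of the strands in that library gave adjusted p of 0.000194, 5.79e-07 and 8.65e-06. It was 89.1 at chr2:157803847, 68.4 at chr15:103494367 and 48.8 at chr2:155489611, where the control library was the asymmetric one. Fisher's exact test of the strands in that library gave adjusted p of 7.37e-12, 9.74e-07 and 2.52e-09. The test of the same difference on the log-odds scale did not call 5 of these 6. At chr15:103494367 the forward strand had 20 of 20 reads methylated in the B[a]P library and 8 of 25 in the control library (32%, 17.2 to 51.6), with reverse levels of 96.1% in the B[a]P library and 96.5% in the control library. All 6 have a less methylated forward strand in the asymmetric library. At chr2:157803847 non-CpG methylation within 25 bases was 0.469% in the B[a]P library and 6.69% in the control library.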

How the results depend on the processing

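With 20 reads or more the counts were 218991 pairs, 288 asymmetric in the B[a]P library, 377 in the control library, 183 recurring, 54 with a called difference of the asymmetry and 148 called between the libraries on both strands. Numbers below keep this order. Of 68 counts recomputed under alternatives, 33 were within 1.5 times these. A minimum of 10 reads gave 468, 637 and 298 recurring. A minimum of 30 gave 183 in the B[a]P library and 119 recurring, and one of 50 gave 85985 pairs, 96, 136, 58 recurring, 29 and 48. Strand depths within 2-fold left 114926 pairs, 114, 132, 69 recurring, 11 and 85. Leaving out pairs beside a listed CHG cytosine left 55754, 52, 83, 23 recurring, 22 and 50. A limit of 50 points gave 126, 111, 83 recurring, 11 and 33. The called differences of the asymmetry were 31 without positions above the 99th percentile of coverage and 14 on the log-odds scale. Chosen after seeing the data, leaving out the part of chromosome 1 around the called stretch gave 35, and 1 pair per 1000 bases gave 182, 237, 120 recurring and 31. Leaving out pairs beside a CHG cytosine also lowered the share of calls that recurred, to 44.2% in the B[a]P library and 27.7% in the control library, against 63.5% and 48.5% over all pairs. Fewer pairs were tested under several of these settings; the cause of the changes beyond that was not tested. In each of these settings no pair was called in the libraries in opposite directions. Of 373 named values recomputed under settings that kept their pair, 366 stayed on the same side of the threshold. Values of named pairs that a setting left out were not counted. The adjusted p of a named library difference was fitted once on all positions, so no setting could change it. The settings keep the read counts of a named pair, so its difference could not change sign. No paired analysis was possible because each group has 1 library. Depth limits small differences: at the 20-read minimum the interval of a level spans many points.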

Other observations

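Recurring pairs were unevenly spread over the chromosomes. Per 1000 pairs of a chromosome, chr13 had 2.10 (13 of 6183 pairs), chr2 had 1.72 (23 of 13402) and chr16 had 0.147 (1 of 6782). On chr13, 9 of the 13 lie in the 1 locus from chr13:93162497, and without that locus it had 0.648 (4 pairs). Chromosome X had none among 2281 pairs, with 4 pairs called in the B[a]P library and 5 in the control library. Over all pairs 0.0836% recurred, and 0.132% were called in the B[a]P library and 0.172% in the control library. At that share few recurring pairs would fall on X. Its depth was also lower, with medians of 48 forward and 46 reverse reads in the B[a]P library and 70 and 71 in the control library. Pairs on X that were intermediate on both strands made up 3.16% in the B[a]P library and 2.94% in the control library, against 6.25% and 6.12% of all pairs.

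Mitochondrial pairs show unequal strand depth at a low mean methylation level. The 107 pairs had a median of 76 forward and 727 reverse reads in the B[a]P library and 81 forward and 986 reverse reads in the control library. Their mean level was 0.613% in the B[a]P library and 0.663% in the control library, near the pooled non-CpG level, and the largest strand difference was 3.75 points in the B[a]P library and 7.20 points in the control library. None was called asymmetric.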
